A study of Homo sapiens with 6 samples.

Results

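The stretch of chromosome 11 from 65400000 to 65520000 (GRCh38) holds NEAT1 and MALAT1, the genes of a pair of abundant nuclear long noncoding RNAs, and all peaks that the deposited lists placed there are described. They were chosen by position, and numbered 30 of the 6043 peaks in the 3 lists, 10 of 1599 in replicate 1, 11 of 2557 in replicate 2 and 9 of 1887 in replicate 3. The study mapped V5-tagged TAF2 by chromatin immunoprecipitation and sequencing (ChIP-seq) in HepG2-TAF2-V5, a clone of the established human liver cancer line HepG2. By the labels, 3 libraries are V5 immunoprecipitations and 3 are controls from the same clone, with no other treatment named. Titles call the controls input DNA, their library names say IgG, and no peaks of theirs were analysed here. The V5 values below therefore stand without a control background. The series has no other clone, and whether its libraries stem from separate cultures is not stated.

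NEAT1 RNA is the scaffold on which paraspeckles form, nuclear bodies that hold RNA-binding proteins such as SFPQ and NONO. MALAT1 RNA gathers in nuclear speckles, which store splicing factors, and its 3′ end is freed by RNase P, which also releases a tRNA-like small RNA, mascRNA. Both genes are transcribed from their lower coordinate upward. TAF2 belongs to TFIID, the complex that recognises core promoters, in which TBP binds the TATA box and TAF1 and TAF2 contact DNA around the start.

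The sequences at the annotated starts of MALAT1 are shown because peaks of 3 libraries overlapped both. They come from RefSeq (GRCh38.p14), plus strand, each running from 250 bases before a start to 50 bases from the start onward. Capitals mark, in the first, the 69 bases between the lowest and the highest summit of the 3 libraries, a summit being the position of the authors' maximum in a peak, and, in the second, the letters TATAAA.
MALAT1 first start, chr11:65497488-65497787: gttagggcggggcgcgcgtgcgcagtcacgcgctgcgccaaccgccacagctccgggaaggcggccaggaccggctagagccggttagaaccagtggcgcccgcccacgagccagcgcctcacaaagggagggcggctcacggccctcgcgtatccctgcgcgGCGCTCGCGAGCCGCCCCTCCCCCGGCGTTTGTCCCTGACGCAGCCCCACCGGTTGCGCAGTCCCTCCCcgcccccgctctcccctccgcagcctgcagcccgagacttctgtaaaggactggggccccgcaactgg
MALAT1 second start, chr11:65498795-65499094: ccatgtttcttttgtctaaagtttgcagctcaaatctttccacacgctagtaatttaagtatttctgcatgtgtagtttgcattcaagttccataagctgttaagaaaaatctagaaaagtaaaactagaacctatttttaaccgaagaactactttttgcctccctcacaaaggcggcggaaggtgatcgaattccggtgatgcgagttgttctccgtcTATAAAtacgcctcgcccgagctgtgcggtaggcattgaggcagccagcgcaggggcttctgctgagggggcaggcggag

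The peaks fell into a group around NEAT1, a group around MALAT1 and a pair of weak peaks between them. Within 5000 bp of NEAT1 lay 7, 4 and 5 peaks in replicates 1, 2 and 3, and within 5000 bp of MALAT1 lay 3, 6 and 3. The MALAT1 group was the longer in each library, with 5767, 5980 and 5100 bp under peaks, and the NEAT1 group had 2137, 2678 and 2387 bp. The MALAT1 group held 69.1% ± 3.43 of the peak length in the window, and the NEAT1 group 29.5% ± 2.17 (SD, n = 3 libraries). The NEAT1 group includes peaks that lay before the gene, in no annotated gene. From the last peak of the NEAT1 group to the first peak between the genes, 61023 bp held no peak in any library. This stretch includes most of NEAT1, MIR612 at its upper end, FAUP4, ENEMAL and LINC02736, none of which had a peak except NEAT1 nearer its lower end. FRMD8, which reaches into the window from below, and the pseudogene SNRPGP19 above MALAT1 had none either.

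**Figure D1:**
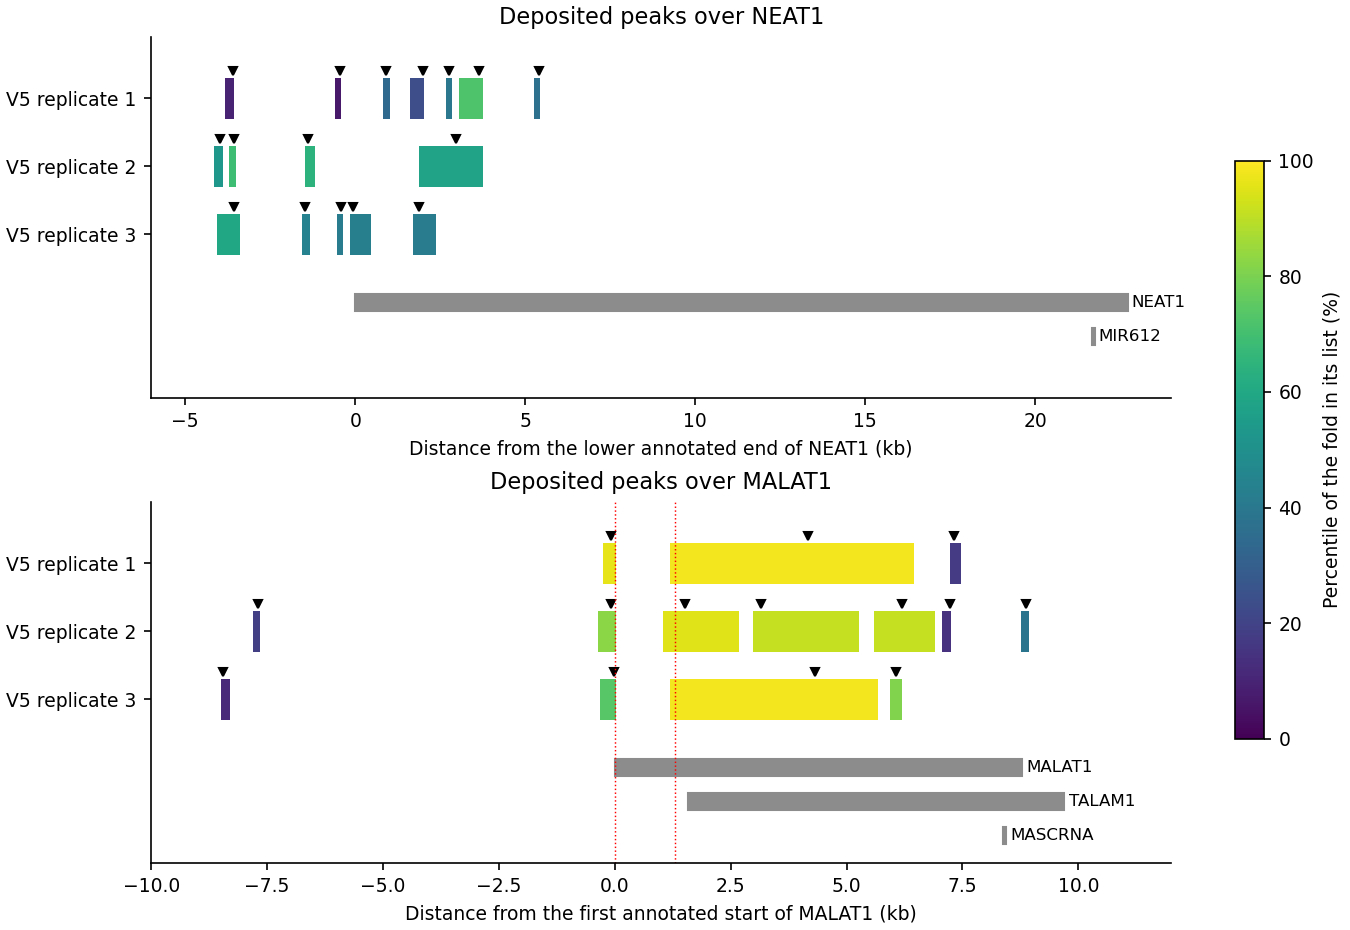
Peaks of the 3 V5 libraries (rows) by distance in kb from the lower end of NEAT1 (top) and from the first start of MALAT1 (bottom). Boxes are peaks coloured by the percentile of their fold within their list, triangles are summits, grey bars are annotated genes and dotted lines the annotated starts of MALAT1. NEAT1 peaks end within 5422 bp of its lower end, whereas peaks of high percentile fill the middle of MALAT1.

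The first start of MALAT1 had a single narrow peak in every library. The peak ran from 65497484 to 65497764 in replicate 1, from 65497386 to 65497761 in replicate 2 and from 65497408 to 65497764 in replicate 3. All 3 ended within 26 bp above the start at 65497738. Their summits lay 76, 87 and 19 bp before the start in replicates 1, 2 and 3, in the capitals of the first sequence. The authors' fold, read as that of the peak over background, was 8.68, 6.87 and 5.89. Folds are used only within a list, and as percentiles of their list, with 100 for the highest fold, these peaks stood at 96.4, 82.7 and 73.4. All 3 were in the upper part of their list, replicate 1 highest and replicate 3 lowest.

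**Figure D2:**
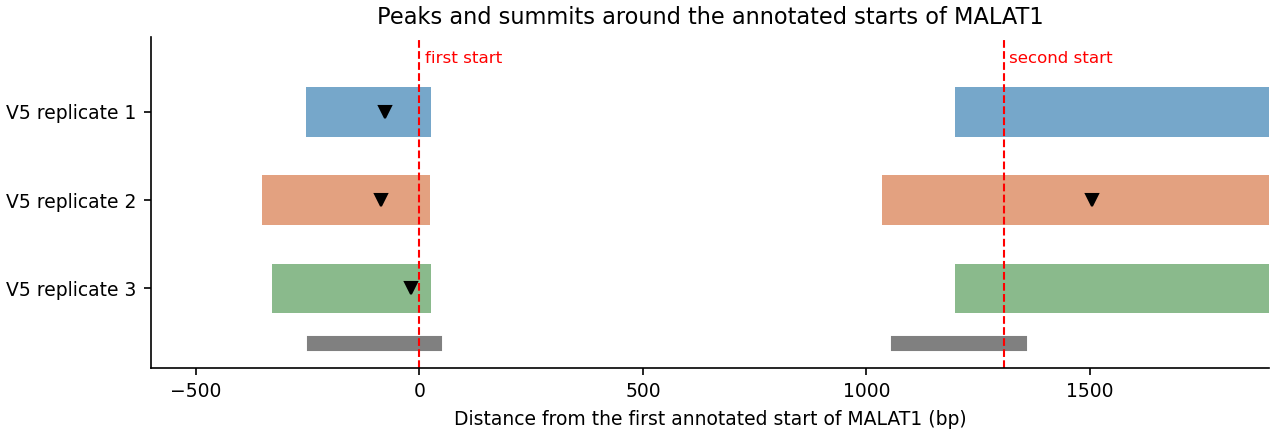
Peaks (coloured boxes) and summits (triangles) of the 3 V5 libraries by distance in bp from the first start of MALAT1, with the second start 1307 bp above it. Grey bars are the 300-base windows whose sequences are given, and boxes reaching the right edge go on beyond it. The 3 summits at the first start lie 19 to 87 bp before it, and no summit lies in the window of the second start.

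The second start of MALAT1, at 65499045, lay just inside the lower edge of a wide peak in every library. That edge was 109 bp before the start in replicates 1 and 3, at the same base, and 272 bp before it in replicate 2. No summit of any library lay within the window of 300 bases, and the nearest was 198 bp above the start, in replicate 2. The stretch of 1008 bp between the peaks of the first start and these wide peaks held no peak in any library.

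Of 35116 promoter windows in the RefSeq table, 69 (0.196%) were overlapped by a peak in 3 libraries, and both MALAT1 windows were among them (windows of neighbouring starts can overlap). By the mean percentile of their peaks over the libraries, the second window ranked 11 of the 69, at 97.2, and the first ranked 21, at 84.2. With the summit inside the window required in 3 libraries, 38 windows (0.108%) were left, with the first MALAT1 window and without the second. The table's other windows in this stretch, at ENEMAL and LINC02736, and that of FRMD8, which lies below it, had no peak in any library. NEAT1, TALAM1 and MASCRNA have no entry in the table.

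The sequences at the 2 starts differed in composition. The first window was 73.7% G and C with 37 CpG dinucleotides, and the second was 46.0% with 14. The median was 65.7% and 28 CpG over the 69 windows with a peak in 3 libraries, and 58.7% and 14 CpG over all windows. TATAAA, the core of the TATA box, was searched on both strands, and was absent from the first window and present once in the second, beginning 30 bases before the start on the sense strand. A TATAAA beginning 20 to 40 bases before the start on that strand was found in 2.30% of all windows and in 6 of the 69 (8.70%). TATAAA anywhere on either strand was found in 11.5% of all windows and 11.6% of the 69. GGGCGG, the core of the GC box bound by Sp1, was found 5 times in the first window, counting both strands, and not in the second. It was present in 45.0% of all windows and 69.6% of the 69. CCAAT was in neither MALAT1 window on either strand, against 34.6% of all windows and 47.8% of the 69. A match describes letters and is not a measured binding site.

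Over the body of MALAT1 the peaks were wide. Replicate 1 had 1 peak of 5262 bp (65498936 to 65504197), with a fold of 9.77, at percentile 98.2 of its list. Replicate 2 had 3 peaks of 1645, 2298 and 1302 bp between 65498773 and 65504637, with folds of 8.72, 7.88 and 7.88, at percentiles 95.0, 91.1 and 91.3. Replicate 3 had 1 peak of 4481 bp (65498936 to 65503416), with a fold of 10.1, at percentile 98.3. A further peak of 262 bp in replicate 3, with a fold of 6.33, lay above it at percentile 80.9. The replicate 1 peak was the fifth widest of its list, that of replicate 3 the seventh of its list, and the widest peak of replicate 2 ranked 15 in its own. Peaks wider than 2000 bp made up 1.25, 0.626 and 0.848% of the lists of replicates 1, 2 and 3, and each library had 1 over MALAT1. Merged, these peaks formed a region of 5865 bp, 8th widest of the 3783 regions obtained when overlapping peaks of the 3 lists were joined.

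The summits of these wide peaks did not share a place as closely as those at the first start. The highest peak of replicate 1 had its summit 4173 bp above the first start, that of replicate 3 4311 bp above it and that of replicate 2 1505 bp above it. The other peaks over 1000 bp in replicate 2 had theirs at 3164 and 6194 bp. Replicates 1 and 3 thus had their highest points 138 bp apart, and replicate 2 had its highest point nearer the second start.

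Toward the 3′ end of MALAT1 the peaks were narrow and low in their lists. A peak of 224 bp in replicate 1 (fold 4.02, percentile 17.5) and one of 187 bp in replicate 2 (fold 4.11, percentile 14.1) formed a region from 65504794 to 65505198. The next 1303 bp, which include the mascRNA gene MASCRNA at 65506117 to 65506174, had no peak. In replicate 2 a peak of 172 bp (fold 4.87, percentile 38.3) lay over the upper end of MALAT1 and 157 bp beyond it. Replicate 3 had no peak in the uppermost 2195 bp of the gene.

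The covered share, the percentage of the annotated span of a gene under a peak, was 62.8, 62.3 and 54.3% for MALAT1 in replicates 1, 2 and 3, which averaged 59.8% ± 4.75 (SD, n = 3). With the gene cut into 4 equal parts from its start, the mean was 49.1% ± 4.21, 95.5% ± 7.86, 83.5% ± 11.9 and 11.3% ± 11.8. The second and the third part stood above the first and the fourth in every library. In all 3 libraries at once, 4147 bp (47.2%) of the gene lay under a peak. TALAM1, transcribed from the opposite strand, spans most of the same DNA (65499312 to 65507432), and ChIP-seq peaks carry no strand, so peaks of the pair cannot be told apart there.

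NEAT1 had peaks only near and before its lower end. Over its span of 22743 bp (65422798 to 65445540) the covered share was 7.47, 8.28 and 5.05% in replicates 1, 2 and 3, which averaged 6.93% ± 1.68 (SD, n = 3). All of it lay in the first of 4 equal parts, where 29.9, 33.1 and 20.2% was covered, and the upper 17320 bp of the gene (76.2% of its span) held no peak in any library. NEAT1 gives a short and a long transcript from the same start, and the upper part of the gene belongs to the long one alone.

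**Figure D3:**
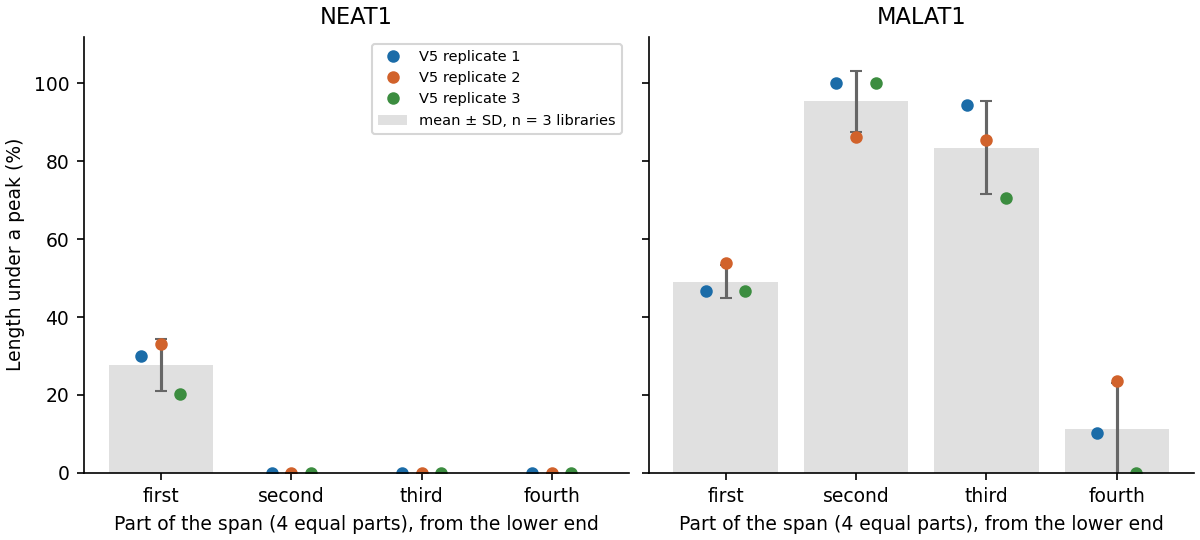
Percentage under a peak in each of 4 equal parts of NEAT1 and MALAT1, from the lower end to the upper. Points are the V5 libraries, bars their mean and lines the SD (n = 3). NEAT1 is covered in the first part alone (27.7% ± 6.72), and MALAT1 mostly in the second and the third.

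The region with the most peaks over NEAT1 ran from 65424402 to 65426572, between 1604 and 3774 bp into the gene, and had peaks in 3 libraries. Replicate 1 had 3 peaks there, with folds of 4.21, 4.70 and 5.79 at percentiles 23.8, 39.5 and 72.2. Replicate 2 had 1 peak of 1882 bp with a fold of 5.52 at percentile 58.1, and replicate 3 had 1 of 690 bp with a fold of 4.84 at percentile 41.5. The peaks were of middling rank in replicates 2 and 3, and of low to high rank in replicate 1. They shared 143 bp in all 3 libraries, and the strongest summits lay 3652, 2975 and 1875 bp from the lower end in replicates 1, 2 and 3.

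The lower end of NEAT1 itself, the 5′ end of the gene, was under a peak in replicate 3 alone. That peak (65422659 to 65423255) had its summit 63 bp before the end, with a fold of 4.87 at percentile 42.8. Replicates 1 and 3 shared a region from 65422213 to 65422442, with summits 450 and 429 bp before the gene and percentiles of 6.38 and 41.3. Replicate 2 had no peak between 1174 bp before the end and 1887 bp into the gene. A peak over the base of the 5′ end was thus found in 1 of 3 libraries for NEAT1 and in 3 of 3 for MALAT1. Within 1000 bp of an annotated end, NEAT1 had a peak in 2 libraries and MALAT1 in 3.

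Farther before NEAT1, a region from 65418655 to 65419421 had peaks in 3 libraries, in no annotated gene and 3377 to 4143 bp before the lower end. The summits nearest each other lay 3582, 3568 and 3561 bp before the gene in replicates 1, 2 and 3, within 21 bp. The highest peak there had a fold of 3.69 in replicate 1, 5.98 in replicate 2 and 5.34 in replicate 3, at percentiles of 9.38, 68.4 and 59.4. The position was shared closely, whereas the rank in replicate 1 was far below the others. A region 1174 to 1560 bp before the gene had peaks in replicates 2 and 3, at percentiles 64.4 and 44.5. Peaks of replicate 1 alone lay 831 to 1019 bp and 5245 to 5422 bp into the gene, at percentiles 34.0 and 36.9.

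The median percentile of the NEAT1 group was 34.0, 61.2 and 42.8 in replicates 1, 2 and 3, and that of the MALAT1 group 96.4, 86.9 and 80.9. In every library the highest peak around NEAT1, at percentiles 72.2, 68.4 and 59.4, stood below the highest around MALAT1, at 98.2, 95.0 and 98.3. The groups overlapped all the same in replicates 1 and 2, because the narrow peaks at the 3′ end of MALAT1 were low. In replicate 3 the lowest MALAT1 peak, at 73.4, stood above every NEAT1 peak. The peaks were chosen by position with the folds of the same lists known, so no test was made.

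**Figure D4:**
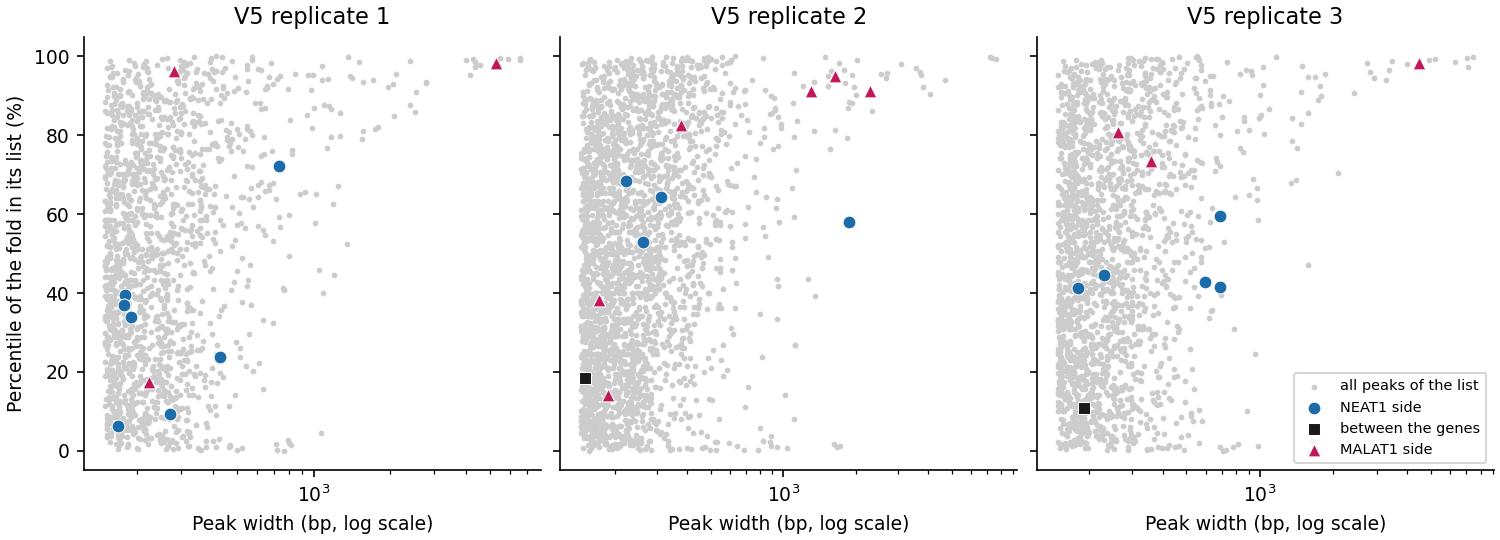
Percentile of the fold against peak width (bp, log scale) in each V5 library. Grey points are all peaks of the list, circles peaks around NEAT1, triangles those around MALAT1 and squares those between the genes. The widest MALAT1 peaks, of 5262, 2298 and 4481 bp in replicates 1, 2 and 3, stand at percentiles 98.2, 91.1 and 98.3.

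The 2 peaks between the genes were each found in a single library. Replicate 3 had one of 190 bp (65489244 to 65489433, fold 3.86, percentile 10.9) and replicate 2 one of 151 bp (65489930 to 65490080, fold 4.26, percentile 18.5). They lay in no annotated gene, 1157 and 1843 bp above LINC02736, and 496 bp apart.

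Joining peaks that overlapped by at least 1 bp gave 13 regions in the window. Peaks of at least 2 libraries were present in 7 of them (53.8%) and peaks of 3 libraries in 4 (30.8%), against 36.7% and 17.1% of all 3783 regions. With so few regions, these shares describe this stretch and no more. The 4 regions of 3 libraries were that before NEAT1, that inside NEAT1, the first start of MALAT1 and the body of MALAT1.

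Base by base, the libraries overlapped more in the group around MALAT1 than in that around NEAT1. Around MALAT1, replicates 1 and 2 shared 4926 bp, 85.4% of the peak length in replicate 1 and 82.4% in replicate 2. Replicates 1 and 3 shared 5024 bp there, 87.1 and 98.5% of their lengths, and replicates 2 and 3 shared 4477 bp, 74.9 and 87.8%. Around NEAT1 the shared length was 1201 bp for replicates 1 and 2 (56.2 and 44.8%), 724 bp for replicates 1 and 3 (33.9 and 30.3%) and 1059 bp for replicates 2 and 3 (39.5 and 44.4%). Over the whole lists the same shares were 60.1 and 40.4%, 53.1 and 46.9%, and 42.0 and 55.2% for these pairs. Each MALAT1 share was above that of the whole lists. The NEAT1 shares were below those of the whole lists, except that of replicate 2 with replicate 1 (44.8 against 40.4%).

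Peaks outside the window lay far from its own. The nearest peak outside it on the lower side lay 394 kb from the first peak of replicate 2, in ARL2-SNX15, at percentile 87.5 of that list. On the upper side the nearest lay 158 kb from the last peak of replicate 1, in RELA, which encodes a subunit of NF-κB, at percentile 44.1. In replicate 3 the nearest peaks lay 1499 kb below and 1114 kb above, in RCOR2 and in RBM14-RBM4. When the genome was cut into tiles of 120 kb, of which this window is one, 30 of the 2161 tiles that held a peak (1.39%) had at least 5 peaks in each library, this one among them. In replicates 1, 2 and 3, 8, 6 and 9 tiles held more peaks, and by peak length the tile ranked 8, 6 and 8.

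Genes of similar covered share were sought among the 438 genes of at least 2000 bp with a peak in 3 libraries, by the sum over libraries of the differences in percentage points. MALAT1 ranked 2 of 438 by mean covered share, and NEAT1 ranked 65, with a median of 0.797% over these genes. Nearest to MALAT1 was TALAM1 (59.7% ± 5.13), which is the same DNA. It was followed by the noncoding gene LOC105369401 (62.0% ± 7.09), the noncoding gene ZFAS1, which hosts small nucleolar RNAs (55.4% ± 4.35), and IRF2BP2, which encodes a transcriptional corepressor (56.8% ± 10.3). These 3 differed from MALAT1 by 24.4 to 29.0 points summed over the libraries, and each of their means lay within 1 SD of that of MALAT1. In replicate 1 MALAT1 was the most covered of the 4, and in replicate 3 the least. The genes were picked by this measure, so closeness follows from the choice, here and for NEAT1. With −log10 q of at least 5, 58.2% of MALAT1 was covered, beside 46.3% of LOC105369401, 50.5% of ZFAS1 and 52.9% of IRF2BP2. Nearest to NEAT1 were C14orf93 (6.86% ± 1.00), TRIM24, a ubiquitin ligase gene (6.10% ± 0.871), AKR1C1, an aldo-keto reductase gene (7.17% ± 0.384), and ZNF217, a zinc finger gene (6.91% ± 0.554). They differed from NEAT1 by 1.87 to 2.77 points summed over the libraries, and none of their means lay beyond its SD. When −log10 q of at least 5 was required, C14orf93, TRIM24 and ZNF217 stayed well above NEAT1, whereas AKR1C1 fell with it. Then 1.07% of NEAT1 was covered, beside 6.34% of C14orf93, 4.53% of TRIM24, 2.39% of AKR1C1 and 6.31% of ZNF217.

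**Figure D5:**
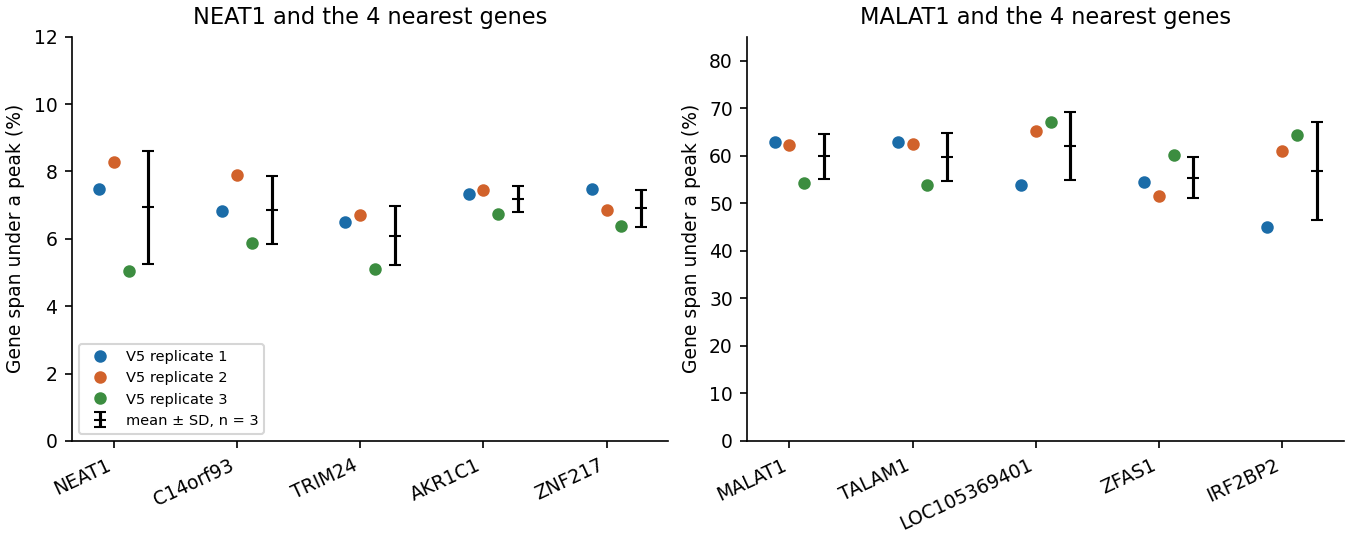
Percentage of the gene span under a peak for NEAT1 (left) and MALAT1 (right) and the 4 genes nearest to each by this measure. Points are the V5 libraries and black marks the mean ± SD (n = 3). The MALAT1 panel runs between 45.0 and 67.0% and the NEAT1 panel between 5.05 and 8.28%.

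Genes for proteins of the bodies that these RNAs join were then counted. The lists used here and below were chosen with earlier results of these data known. The background of all genes of a class was not matched for expression, so the shares describe the listed genes and no more. Of 41 genes for paraspeckle proteins, 7 (17.1%) had a peak over the span in at least 2 libraries, against 3.24% of all protein-coding genes. Within 1000 bp of an annotated end, 1 of the 41 (MATR3) had a peak in at least 2 libraries. The share of all protein-coding genes by this end measure was not computed, so that count has no background. Peaks in 3 libraries were found at 4 of them, against 1.62% of all protein-coding genes. These were SFPQ, an essential paraspeckle protein that binds NEAT1, MATR3, HNRNPR and HNRNPH1, all RNA-binding proteins. SFPQ had 1 peak in each library, at percentiles 55.9, 43.9 and 28.4, and 2.12% ± 0.460 of its span was covered (n = 3). MATR3 had 7, 8 and 13 peaks over 4.69% ± 0.974 of its span. HNRNPR and HNRNPH1 had 1 peak in each library and covered shares of 0.655% ± 0.337 and 1.02% ± 0.143. Of these 41 genes, 30 had no peak, NONO and PSPC1 among them.

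Of 34 genes for nuclear speckle proteins, 7 (20.6%) had a peak in at least 2 libraries and 5 in 3, against 3.24 and 1.62% of all protein-coding genes. Within 1000 bp of an annotated end, 5 had a peak in at least 2 libraries, not all of them among the 7. That count again has no background share. The splicing regulators TRA2B and SRSF3 had covered shares of 39.4% ± 1.91 and 20.4% ± 2.57 (SD, n = 3), with their highest peak between percentiles 96.3 and 99.8 in every list. LUC7L3, RBM39 and SON, which encodes a core protein of the speckle, also had peaks in 3 libraries and covered shares of 0.895% ± 0.336, 1.22% ± 0.518 and 1.68% ± 1.02. TRA2B and SRSF3 came nearest to MALAT1 in this list, and below it in each library. Both lists had a median covered share of 0, as had all protein-coding genes, and their median gene lengths of 27247 and 23922 bp stood beside 24093 bp for that class.

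Among 29 other genes listed for their noncoding RNAs, 1 of which (TUG1) the annotation classes as protein-coding, ZFAS1, SNHG1, SNHG3 and KCNQ1OT1 had peaks in 3 libraries. All 4 are among the 22 of the list that the annotation classes as long noncoding, and 1.34% of all genes of that class had a peak in at least 2 libraries and 0.677% in 3. SNHG1, which hosts small nucleolar RNAs and lies on the same chromosome, had 25.3% ± 7.69 of its span covered, and SNHG3, another such host, 17.5% ± 6.71 (SD, n = 3). KCNQ1OT1, an imprinted antisense RNA inside KCNQ1, had 1.39% ± 0.292. The peaks over KCNQ1OT1 cannot be told apart from peaks of KCNQ1. MALAT1 was the most covered of these RNAs in replicates 1 and 2 and ZFAS1 in replicate 3, and NEAT1 lay between SNHG3 and KCNQ1OT1 by mean.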

How the data were processed

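Chromatin from 3 V5 immunoprecipitations of HepG2-TAF2-V5 was sequenced, and each library has a deposited peak list in narrowPeak layout. The build was GRCh38, per the submitters' processing notes. Neither aligner nor peak caller, threshold or control is given in the sources used here. The value called the authors' fold is the signal value of the narrowPeak layout. It is read here as a linear ratio of a peak over background, which could not be checked without the caller. The deposited −log10 p and −log10 q are the authors' own, and −log10 q served only as a filter and an alternative rank. The deposited summit is counted in bp from the lower edge of its peak. The lists hold no read counts, so depth is unknown and no counting interval can be given.

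Coordinates are printed from 1. Percentiles are ranks within a list. Gene spans and promoter sequences are those of RefSeq GRCh38.p14, and promoter windows hold 250 bases before and 50 after a start. The rule for naming genes took all genes annotated in the window, the nearest peak on either side, the 4 genes nearest by covered share, and list members with peaks in 3 libraries. The members and lists were chosen with earlier results of these data known, and promoter windows, motifs, parts of genes, tiles and the naming of NONO and PSPC1 after values were seen. No comparison between groups was possible, and no test was made. Merging and coverage code was tested on simulated data. Alternatives covered stricter peaks, overlap rules, window, ranking, gene ends and replicates. Python 3.11.15, numpy 2.4.6, pandas 2.3.3 and matplotlib 3.10.9 were used.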

Additional observations from a re-analysis of the deposited data

How the results depend on the processing

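Depth is unknown, so a missing peak may lie below the threshold of a list. Of 90 recomputed values, 75 stayed within the SD between libraries or, for counts, within 1.5 times, and 15 moved. Reversal of a direction was not checked. A mean over 3 libraries cannot move by 1 SD when a replicate is left out, so those values had to stay. Widening the window by 50 kb on either side could not add a peak either, because none lay so near. The mean of 10 peaks per library in the window became 7 with −log10 q of at least 3 and 5 with at least 5, and ran from 9.50 to 10.5 with a replicate left out. The 7 shared regions became 4 with peaks of 3 libraries required and 3 with −log10 q of at least 5, and numbered 5 without any one replicate. The covered share of NEAT1 fell to 1.07% with −log10 q of at least 5, against 6.93%, whereas that of MALAT1 was 58.2% against 59.8%. The mean over libraries of the median fold percentile in the window, 48.1, became 95.9 when weighted by peak width. The paraspeckle count of 7 became 1 with a peak within 1000 bp of an end and 4 with 3 libraries. Left out one at a time, the replicates gave 5 paraspeckle genes, 5 to 6 nuclear speckle genes and 4 noncoding RNA genes. The libraries with a peak at the second MALAT1 start became 0 of 3 with the summit inside the window, an alternative chosen after seeing the data. No paired analysis was possible because the controls have no peak list here.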
